A study of Drosophila melanogaster with 13 samples.

Results

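Proteasome and translation factor genes were examined as possible sites of occupancy by Pita, a zinc-finger architectural protein of Drosophila insulators. The members were picked by gene symbol, and the set held 99 of the 17684 genes on the main chromosomes in the RefSeq Release 6 gene table. It comprised 48 proteasome genes (symbols starting Prosalpha, Prosbeta, Rpn or Rpt) and 51 translation factor genes (symbols starting eIF or eEF). A gene was counted as reached when a peak summit lay within 500 bp of either of its ends.

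The proteasome is the protease that degrades ubiquitin-tagged proteins. Its 20S core is a stack of alpha rings, which gate entry, and beta rings, which carry the proteolytic sites, and the 19S cap adds the Rpt ATPases that unfold substrates and the Rpn subunits that bind and de-ubiquitinate them. Initiation factors (eIFs) bring the ribosome, the initiator tRNA and the capped mRNA together, and elongation factors (eEFs) drive the ribosome along the message. These are housekeeping genes in most tissues, and Drosophila also has duplicated copies of many of them, several used in the male germline. Pita belongs to the proteins that bind DNA through zinc fingers and pair through an N-terminal zinc finger-associated domain, the ZAD.

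Chromatin came from whole bodies of adult flies aged 2 to 3 days, and each preparation started from 1 g of flies, so that animals and tissues were pooled. The PitaΔZ line, whose labels read y1w1118; pita1attP PitadeltaZ, carried Pita without the ZAD. The PitaZ276 line (pita1attP PitaZ276) carried the ZAD-like domain of human ZFP276 in place of the fly domain, and the Pitawt line (pita1attP Pitawt) carried the wild-type protein. All groups carried the pita1attP allele, and the lines were named as FLAG-tagged. Each was assayed with 2 antibodies, FLAG and Pita, in 2 libraries per combination, and 1 library of preimmune serum came from Pitawt flies. The authors deposited 1 joined peak list per line and antibody, 6 in all, so every value below is a single one with no spread between replicates, and no test between lines was possible.

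The lists held 685 peaks for PitaΔZ FLAG, 797 for PitaΔZ Pita, 1243 for PitaZ276 FLAG, 492 for PitaZ276 Pita, 1792 for Pitawt FLAG and 1195 for Pitawt Pita. The number of reads behind them is unknown. The authors' fold is the enrichment of a peak over its background, a ratio, and a peak's rank is its place by p within its own list. Folds and ranks from lists of different length and threshold describe each list alone. A missing call therefore says that no peak passed in that list, and not that Pita was absent.

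Summits reached 19 of the 99 genes in at least 1 list, and 80 in none. Of the 19, 6 were reached in all 6 lists: the initiation factor genes eIF1, eIF2Bepsilon and eIF4G2, the elongation factor gene eEF2, and the proteasome genes Rpt4 and Prosbeta2R2. A further 3, eIF4A, eIF4E1 and Rpt6, were reached in every list but PitaZ276 Pita. The other 10 were called in 1 to 3 lists, and all of these except eIF3j were called in Pitawt. Of the 99 genes 19.2% were thus reached in at least 1 list, against 9.70% of all 17684 genes, and 6.06% in all 6 lists, against 2.36% of all genes.

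**Figure D1:**
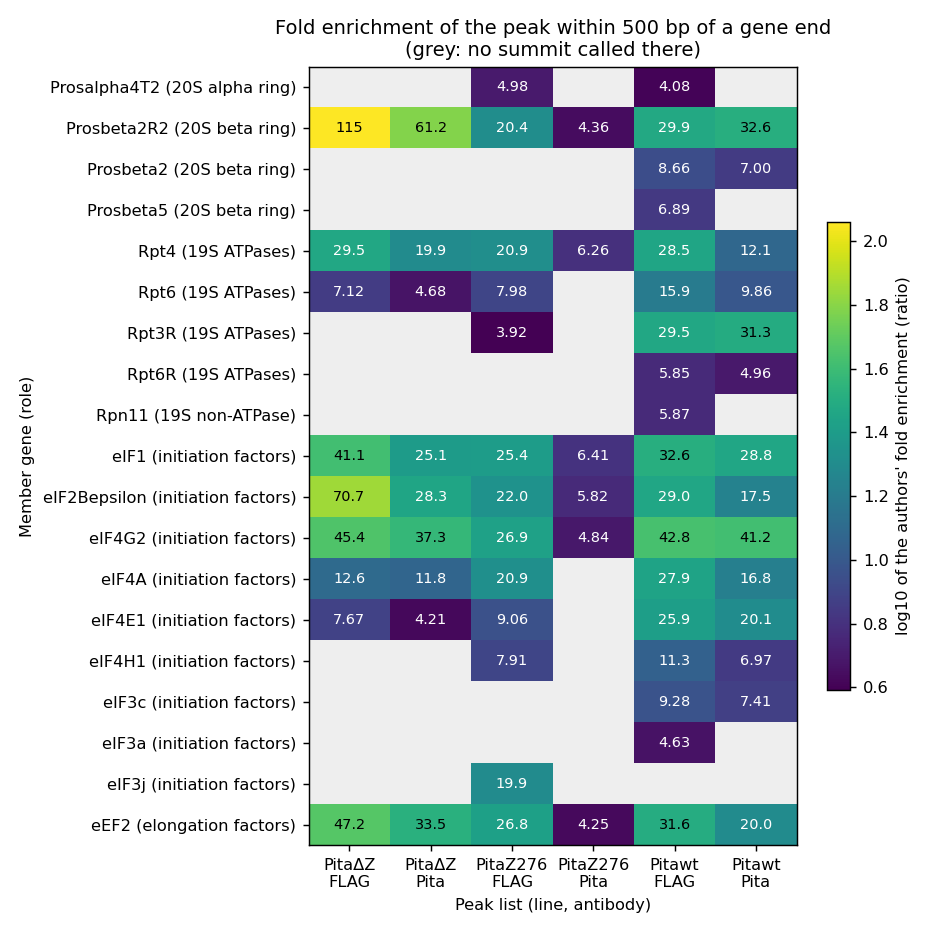
Authors' fold enrichment (colour, log10 scale, with the fold printed) of the peak at each of the 19 genes reached (rows, with their role), in the 6 peak lists (columns, by line and antibody). Grey marks no summit there; 6 rows are filled throughout, and 10 rows hold 1 to 3 calls. Folds are read within a column, as the lists do not share a threshold.

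With the lists as deposited the count was lower in the altered lines than in Pitawt, as it was for genes in general. PitaΔZ FLAG reached 9 of the 99 genes (9.09%, 95% exact Clopper-Pearson interval 4.24 to 16.6), where 4.35% of all genes were reached. PitaΔZ Pita also reached 9, against 4.87% of all genes. PitaZ276 FLAG reached 13 (13.1%, 7.18 to 21.4), against 6.64% of all genes, and PitaZ276 Pita reached 6, against 2.96%. Pitawt FLAG reached 18 (18.2%, 11.1 to 27.2), against 8.51% of all genes, and Pitawt Pita reached 14 (14.1%, 7.95 to 22.6), against 6.01%.

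The gap between the lines was smaller with lists of equal length. With the 492 highest-ranked peaks of each list, the FLAG counts were 7 in PitaΔZ, 8 in PitaZ276 and 9 in Pitawt, against 3.45%, 3.42% and 3.19% of all genes. The Pita counts were then 7 in PitaΔZ, 6 in PitaZ276 and 8 in Pitawt, against 3.40%, 2.96% and 2.88% of all genes.

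The share of the 99 genes was above the share of all genes in each of the 6 lists. All 99 code for proteins, and over the 13922 protein-coding genes the shares were 5.18%, 5.79%, 7.75%, 3.48%, 9.92% and 6.96% in the same order of lists. The lower bounds for the 99 genes lay above the protein-coding share in Pitawt FLAG and Pitawt Pita, and below it in the other 4 lists. These intervals cover counting error over genes only; whether the share differs from that of other genes was not tested. Cytosolic ribosomal protein genes were reached more often in the counts, 25 of 92 in Pitawt FLAG, and mitochondrial ribosomal protein genes less often, 8 of 73.

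**Figure D2:**
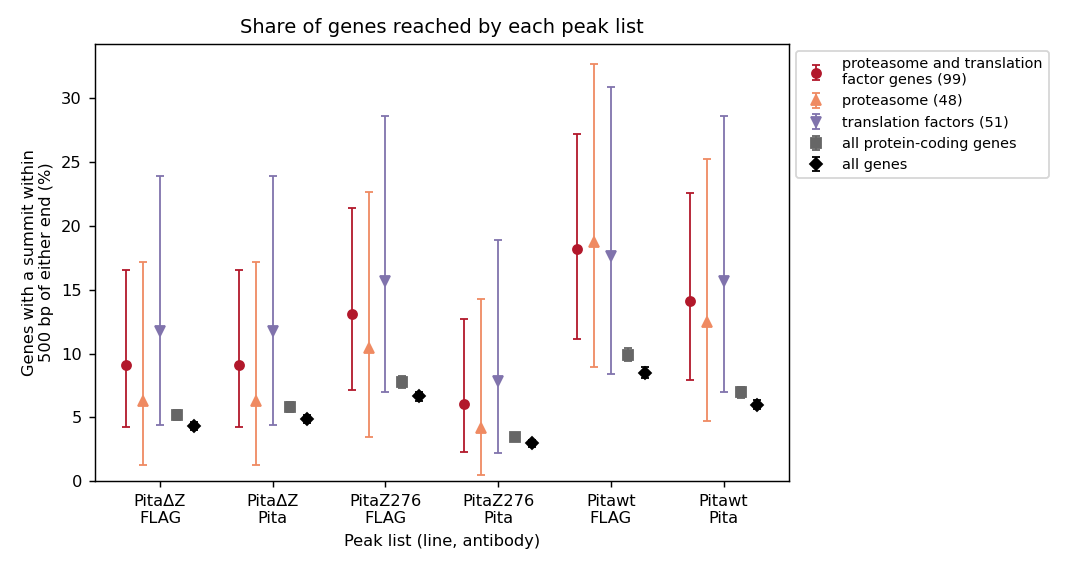
Percent of genes with a peak summit within 500 bp of either end (vertical axis) in each of the 6 peak lists (horizontal axis), for the 99 genes, their proteasome and translation factor parts, all protein-coding genes and all genes. Points are single values and bars are 95% exact Clopper-Pearson intervals for counting error; the 99 genes sit at 6.06 to 18.2% and all genes at 2.96 to 8.51%.

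Of the 48 proteasome genes 3 (6.25%) were reached in PitaΔZ FLAG, 5 (10.4%) in PitaZ276 FLAG and 9 (18.8%) in Pitawt FLAG. Of the 51 translation factor genes 6 (11.8%) were reached in PitaΔZ FLAG, 8 (15.7%) in PitaZ276 FLAG and 9 (17.6%) in Pitawt FLAG. In the same lists 4.35%, 6.64% and 8.51% of all genes were reached, and 5.18%, 7.75% and 9.92% of protein-coding genes. With counts this small the intervals of the proteasome and translation factor genes overlapped widely. In PitaΔZ FLAG, for example, they ran from 1.31 to 17.2% for proteasome genes and from 4.44 to 23.9% for translation factor genes.

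Of the 44 initiation factor genes, 8 were reached in Pitawt FLAG (18.2%, 8.19 to 32.7), where 8.51% of all genes and 9.92% of protein-coding genes were. The eIF4 factors, which recognise the cap and unwind the leader of the mRNA, had 4 of 13 genes reached (30.8%, 9.09 to 61.4): eIF4A, eIF4E1, eIF4G2 and eIF4H1. Within them, 1 of the 7 eIF4E family genes was reached (14.3%, 0.361 to 57.9). The eIF3 subunits, which form the scaffold on the small ribosomal subunit, had 2 of 16, eIF3a and eIF3c (12.5%, 1.55 to 38.3), which is near the protein-coding share. The eIF2B complex, which recharges eIF2 with GTP, had 1 of 5, and of eIF1 and eIF1A only eIF1 was reached. None of the 3 eIF2 subunit genes was reached in any list, nor were eIF2A, eIF2D, eIF5, eIF5B or eIF6.

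eIF4G2 had the highest Pitawt FLAG fold of the set. It encodes a scaffold protein of cap-dependent initiation that is needed in the male germline. The gene lies on 3R (dm6) from 23808285 to 23819237, and the Pitawt FLAG summit was at 23819347, 110 bp beyond its end. Its folds were 45.4 with FLAG and 37.3 with Pita in PitaΔZ, 26.9 and 4.84 in PitaZ276, and 42.8 and 41.2 in Pitawt. The ranks were 195 of 685 in PitaΔZ FLAG, 176 of 1243 in PitaZ276 FLAG and 145 of 1792 in Pitawt FLAG. In PitaZ276 Pita it ranked 296 of 492, with a fold below the list's median of 5.59. That list joins a pair of peak lists, and by the p of the second of them eIF4G2 ranked 102 of 492. The Pitawt FLAG summit lay inside CG34355 and also 110 bp from an end of CG33111.

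eIF1 encodes the small factor that keeps the scanning ribosome open until a start codon is found. It lies on 3L from 3223341 to 3224650. Its folds were 41.1 with FLAG and 25.1 with Pita in PitaΔZ, 25.4 and 6.41 in PitaZ276, and 32.6 and 28.8 in Pitawt. Its summit was the steadiest of those called in all lists, within 16 bp over the 6 lists. The Pitawt FLAG summit lay 279 bp beyond the gene, inside Larp4B, a La-related protein gene whose end was nearer, at 91 bp.

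eIF2Bepsilon encodes the catalytic subunit of eIF2B. It lies on X from 1920166 to 1922874, and the Pitawt FLAG summit was 78 bp beyond it, between that gene and Ocrl, an inositol phosphatase gene 29 bp away. The folds were 70.7 with FLAG and 28.3 with Pita in PitaΔZ, 22.0 and 5.82 in PitaZ276, and 29.0 and 17.5 in Pitawt. In PitaΔZ FLAG this peak ranked 70 of 685, and in Pitawt FLAG 207 of 1792.

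eIF4A and eIF4E1 were called in both PitaΔZ lists, eIF4A near the middle of the PitaΔZ Pita list and eIF4E1 low in both. eIF4A encodes the RNA helicase of the cap-binding complex and lies on 2L from 5981764 to 5985909, with the Pitawt FLAG summit 213 bp outside it and no other gene end within 500 bp. Its folds were 12.6 with FLAG and 11.8 with Pita in PitaΔZ, 20.9 with FLAG in PitaZ276, and 27.9 and 16.8 in Pitawt. For eIF4A the ranks were 481 of 685 in PitaΔZ FLAG, 407 of 797 in PitaΔZ Pita, 219 of 1243 in PitaZ276 FLAG and 272 of 1792 in Pitawt FLAG. eIF4E1 encodes the main cap-binding protein, on 3L from 9399618 to 9402460. Its folds were 7.67 and 4.21 in PitaΔZ, 9.06 with FLAG in PitaZ276, and 25.9 and 20.1 in Pitawt. For eIF4E1 the ranks were 636 of 685 in PitaΔZ FLAG, 637 of 1243 in PitaZ276 FLAG and 350 of 1792 in Pitawt FLAG. The summit lay within the gene, 246 bp from its end in Pitawt FLAG, and no other gene end was within 500 bp.

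The remaining initiation factor calls were weak or confined to fewer lists. eIF4H1, named for a cofactor of the eIF4A helicase in mammals, had folds of 7.91 in PitaZ276 FLAG, 11.3 in Pitawt FLAG and 6.97 in Pitawt Pita. eIF3c had 9.28 in Pitawt FLAG and 7.41 in Pitawt Pita, with the summit inside the gene. eIF3a had a fold of 4.63 in Pitawt FLAG alone, at a summit 21 bp from CG1074.

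By the summits of the first joined lists, eIF3j had its only call in PitaZ276 FLAG. Of the 13 genes reached there, it was the only 1 that Pitawt FLAG did not reach. Over all genes, 118 of the 1174 reached in PitaZ276 FLAG were not reached in Pitawt FLAG. The fold of eIF3j in PitaZ276 FLAG was 19.9, rank 314 of 1243. The gene lies on 2R from 9968929 to 9970897, and the summit at 9971153 lay 256 bp beyond it, inside CG12134 and 10 bp from the end of that gene. In PitaZ276 Pita a peak with a fold of 2.85, rank 486 of 492, had its first joined summit 703 bp from eIF3j and was not counted. With the summits of the second joined list PitaZ276 Pita reached 7 of the 99 genes in place of 6, against 3.08% of all genes. It then held 7 of the 13 PitaZ276 FLAG genes, against 45.1% of all genes. The missing call at eIF3j may thus rest on the summit of the first joined list. No Pitawt or PitaΔZ list had a summit within 2000 bp of eIF3j.

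Of the 7 elongation factor genes only eEF2 was reached, and it was reached in all 6 lists. eEF2 encodes the GTPase that translocates the ribosome, and lies on 2L from 21677913 to 21682164. Its folds were 47.2 with FLAG and 33.5 with Pita in PitaΔZ, 26.8 and 4.25 in PitaZ276, and 31.6 and 20.0 in Pitawt. The Pitawt FLAG summit was 52 bp outside the gene, in no annotated gene.

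Among proteasome genes the share reached varied between subunit groups, on small counts. In Pitawt FLAG, where 8.51% of all genes and 9.92% of protein-coding genes were reached, 4 of the 9 Rpt genes were (44.4%, 13.7 to 78.8), as were 1 of 14 Rpn genes (7.14%), 3 of 13 beta ring genes (23.1%) and 1 of 12 alpha ring genes (8.33%). The Rpn and alpha ring shares lay near the background, and the intervals of all 4 groups overlapped. Of the 16 genes whose symbols mark them as duplicates, by a T or R after the subunit number, 4 were reached (25.0%, 7.27 to 52.4), and of the other 32 proteasome genes 5 were (15.6%, 5.28 to 32.8).

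Rpt4 encodes an ATPase of the 19S base, on X from 6289470 to 6291245. Its folds were 29.5 with FLAG and 19.9 with Pita in PitaΔZ, 20.9 and 6.26 in PitaZ276, and 28.5 and 12.1 in Pitawt. The Pitawt FLAG summit was 53 bp outside Rpt4 and 5 bp from the end of mldr. Rpt6, the gene of another ATPase of the ring, lies on X from 21316052 to 21317663. Rpt6 had folds of 7.12 and 4.68 in PitaΔZ, 7.98 with FLAG in PitaZ276, and 15.9 and 9.86 in Pitawt, and it was near the foot of the PitaΔZ FLAG list at rank 659 of 685.

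Rpt3R, a duplicate of the Rpt3 ATPase gene, had a strong site in Pitawt and none in PitaΔZ. It lies on 3R from 9754735 to 9756510. No summit was called within 500 bp of it with either antibody in PitaΔZ. In PitaZ276 FLAG the fold was 3.92, rank 1079 of 1243, at a summit 424 bp outside the gene, and PitaZ276 Pita had no call. In Pitawt the folds were 29.5 with FLAG, rank 254 of 1792, and 31.3 with Pita, rank 175 of 1195, at summits 170 and 191 bp outside the gene and inside its neighbour Tti1.

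Sites of that strength in Pitawt were usually called in the other lines. Of the 101 Pitawt FLAG peaks within 50 ranks of the Rpt3R peak, 84 (83.2%) overlapped a PitaΔZ FLAG peak, 98 (97.0%) a PitaZ276 FLAG peak, and 77 (76.2%) a PitaZ276 Pita peak. The Rpt3R peak itself overlapped neither PitaΔZ list, nor PitaZ276 Pita. It did overlap the weak PitaZ276 FLAG peak, whose summit in the first joined list was 254 bp from the Pitawt FLAG one; the joined lists of PitaZ276 FLAG placed that summit 259 bp apart from each other, so its position is not fixed well.

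Prosbeta2R2, a duplicate of the gene for the trypsin-like beta subunit, stood highest of the set in PitaΔZ. It lies on 3R from 5217751 to 5219528, and its Pitawt FLAG summit was 199 bp outside it and 96 bp from cno, which encodes the junction protein Canoe. The folds were 115 with FLAG and 61.2 with Pita in PitaΔZ, 20.4 and 4.36 in PitaZ276, and 29.9 and 32.6 in Pitawt. By p it ranked 41 of the 685 PitaΔZ FLAG peaks, 26 of the 797 PitaΔZ Pita peaks, 254 of the 1243 PitaZ276 FLAG peaks and 268 of the 1792 Pitawt FLAG peaks.

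The other proteasome calls had folds below 10. Prosbeta2, the gene of the trypsin-like subunit itself, had 8.66 with FLAG and 7.00 with Pita in Pitawt, at a summit inside the gene. Prosbeta5, which encodes the chymotrypsin-like subunit, had 6.89 in Pitawt FLAG alone, with the summit 73 bp outside it and 21 bp from the planar polarity gene dgo. Rpt6R, a duplicate of Rpt6, had 5.85 and 4.96 in Pitawt. Rpn11, which encodes the deubiquitinase of the lid, had 5.87 in Pitawt FLAG alone. Prosalpha4T2, the gene of a testis alpha subunit, had 4.98 in PitaZ276 FLAG and 4.08 in Pitawt FLAG.

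The share of Pitawt calls held in the altered lines was near that of all genes. PitaΔZ FLAG held 9 of the 18 genes reached in Pitawt FLAG (50.0%, 26.0 to 74.0), and 49.2% of all genes reached in Pitawt FLAG. PitaZ276 FLAG held 12 of the 18 (66.7%, 41.0 to 86.7), and 70.2% of all such genes. Both shares lay near the background, so they are not a result about these genes. With lists of equal length PitaΔZ FLAG held 7 of 9 (77.8%), and 79.1% of all genes. PitaZ276 FLAG held all 9 genes of PitaΔZ FLAG, where 96.4% of all genes of that list were held, and added Prosalpha4T2, Rpt3R, eIF3j and eIF4H1. These were 4 of its 13 genes, and over all genes 433 of the 1174 in PitaZ276 FLAG were added. The Pitawt list is common to both comparisons with Pitawt.

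With the Pita antibody PitaΔZ held 9 of the 14 genes reached in Pitawt Pita (64.3%, 35.1 to 87.2), and 66.1% of all genes. PitaZ276 held 6 of the 14 (42.9%, 17.7 to 71.1), and 46% of all genes. The 9 genes of PitaΔZ Pita were the same as the 9 of PitaΔZ FLAG. Between the antibodies, Pitawt Pita held 14 of the 18 Pitawt FLAG genes (77.8%), where 67.2% of all genes were held, and missed Prosalpha4T2, Prosbeta5, Rpn11 and eIF3a, each with a Pitawt FLAG fold under 7. PitaΔZ Pita held all 9 PitaΔZ FLAG genes, where 94.3% of all genes were held, and PitaZ276 Pita held 6 of the 13 PitaZ276 FLAG genes (46.2%), where 42.8% of all genes were held.

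The joined lists behind some of these values differed greatly, most of all in PitaZ276 Pita. In the authors' deposited list the −log10 p at its 6 genes ran from 8.83 to 25.3 in the first joined list and from 295 to 1245 in the second. The folds of these genes in PitaZ276 Pita were 4.25 to 6.41. Gaps were also wide in the authors' deposited PitaZ276 FLAG list, with a −log10 p of 224 and 630 at Prosbeta2R2 and 322 and 766 at eIF4G2. In the authors' deposited Pitawt Pita list the values were 191 and 48.3 at eIF2Bepsilon and 99.4 and 35.7 at Rpt4. Ranks and folds from these lists carry that limit. In the authors' deposited Pitawt FLAG list, eIF2Bepsilon had a −log10 p of 515 in both joined lists, and eIF4G2 had 651 and 592.

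The genes still reached in PitaΔZ were those with the higher folds in Pitawt, apart from Rpt3R. The 9 genes reached in PitaΔZ FLAG had Pitawt FLAG folds of 15.9 to 42.8. Of the 9 that were not, Rpt3R had 29.5 and the other 8 had 4.08 to 11.3. Pitawt FLAG peaks in general showed a like fall with rank. Among peaks within 50 ranks of eIF4G2, 94.1% overlapped a PitaΔZ FLAG peak. The share was 41.0% around Rpt6, at rank 711, and 8.00% around Rpt6R, at rank 1501. The split is thus not a result about these genes. The median fold at the 18 genes in Pitawt FLAG was 20.9, against 12.8 for peaks within 500 bp of any gene end. The same medians were 41.1 against 34.1 in PitaΔZ FLAG, 25.1 against 18.3 in PitaΔZ Pita, 20.4 against 12.5 in PitaZ276 FLAG and 17.1 against 14.0 in Pitawt Pita. In PitaZ276 Pita the members' median was the lower, at 5.33 against 5.68. In Pitawt FLAG 9 of the 18 peaks stood at rank 350 of 1792 or better, a cut set by eIF4E1, the last of the 9. The matching share of other peaks near gene ends was not computed.

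To compare ranks between lists of equal length, overlapping peaks were paired by their nearest summits and ranked again by p within the pairs. PitaΔZ FLAG and Pitawt FLAG gave 662 pairs, 9 of them at these genes, with a median difference of 107.5 places over all pairs in either direction and 120 places over the 9. Prosbeta2R2 stood at rank 41 in PitaΔZ FLAG and 250 in Pitawt FLAG, and 10.4% of all pairs differed as far in that direction. eIF2Bepsilon stood at 70 in PitaΔZ FLAG and 199 in Pitawt FLAG, and eEF2 at 241 and 312 in the same lists. In the opposite direction eIF4E1 stood at 619 in PitaΔZ FLAG and 315 in Pitawt FLAG, with 5.59% of pairs as far, and eIF4A at 479 and 254, with 9.37%. Differences of this size were thus found at many other sites.

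The second joined list of each file gave ranks of 49 in PitaΔZ FLAG and 261 in Pitawt FLAG for Prosbeta2R2, and of 606 and 357 for eIF4E1. The Pita antibody placed Prosbeta2R2 at 26 in PitaΔZ Pita and 142 in Pitawt Pita of 635 pairs, and eIF4E1 at 578 and 260. The direction was thus the same with both antibodies for these genes, and for eIF2Bepsilon, eEF2 and eIF4A. Rpt4 differed in direction, at 284 in PitaΔZ FLAG and 226 in Pitawt FLAG, but 255 in PitaΔZ Pita and 379 in Pitawt Pita.

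PitaZ276 FLAG and Pitawt FLAG gave 1095 pairs, 12 of them at these genes, with a median difference of 94 places over all pairs and 62.5 over the 12. Rpt3R differed most, at 1006 in PitaZ276 FLAG and 251 in Pitawt FLAG, and 0.274% of pairs differed as far in that direction. eIF4E1 followed, at 635 in PitaZ276 FLAG and 342 in Pitawt FLAG, with 6.48% of pairs as far. Prosbeta2R2, which stood higher in PitaΔZ, was at 254 in PitaZ276 FLAG and 265 in Pitawt FLAG. By the second joined lists Prosbeta2R2 was at 191 in PitaZ276 FLAG and 279 in Pitawt FLAG, and Rpt3R at 1017 and 257. Rpt4, eIF2Bepsilon and eIF4G2 changed direction between the joined lists, and the others of the 12 kept theirs.

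**Figure D3:**
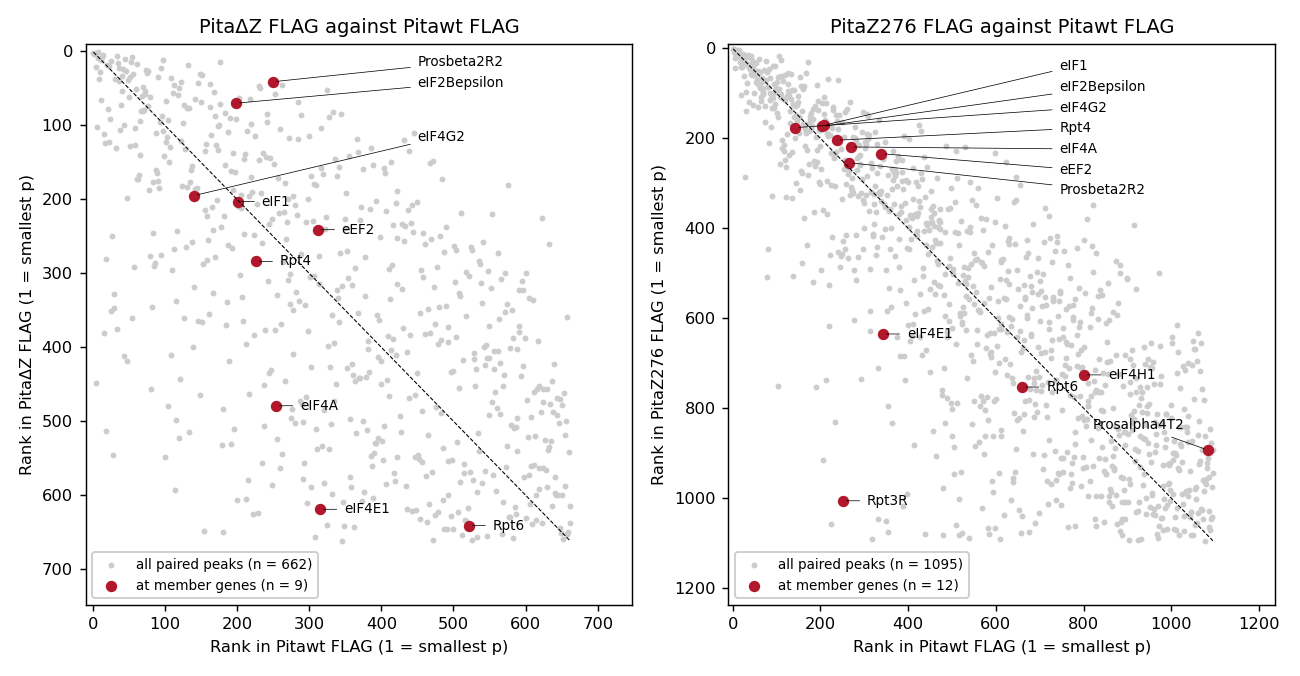
Rank by p among paired peaks in PitaΔZ FLAG (left, 662 pairs) and PitaZ276 FLAG (right, 1095 pairs), on the vertical axes, against the rank in Pitawt FLAG on the horizontal axes, with rank 1 at the top left. Grey points are all pairs, red points the pairs at the named genes, and the dashed line marks equal rank; Prosbeta2R2 lies far above the line in PitaΔZ, and Rpt3R and eIF4E1 lie far below it in PitaZ276.

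The window fixed that a counted summit lay near a gene end, and within it the 18 Pitawt FLAG summits were 44 to 386 bp from the nearer end, 8 of them within 100 bp. Summits in no gene numbered 10, those inside the named gene 4 (eIF3c, eIF4E1, Prosbeta2 and Rpn11) and those inside another gene 4. Over the 9 genes called in 5 or 6 lists, the summits of one gene spanned 16 to 107 bp, with a median of 35 bp. Rpt3R, called in 3 lists, spanned 254 bp. The widest of the 9, at Prosbeta2R2, came from PitaZ276 Pita, whose summit was 306 bp from the gene, against 199 bp in Pitawt FLAG. That is the summit of the first joined list, and the second placed it 194 bp from the gene.

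**Figure D4:**
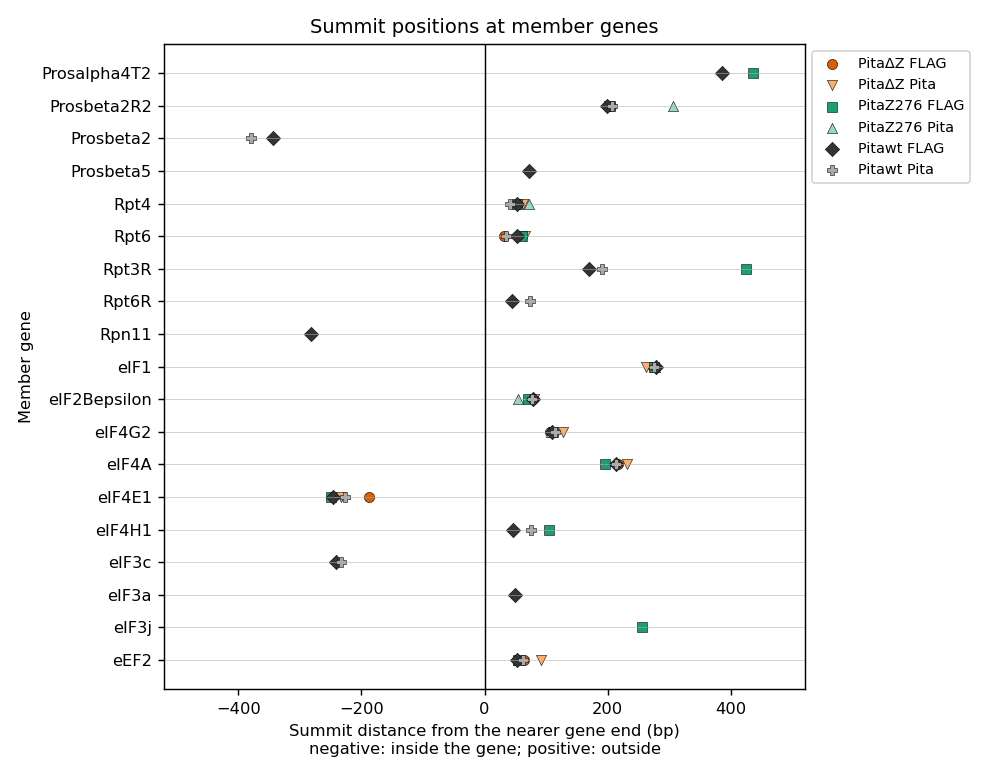
Distance of each peak summit from the nearer gene end in bp (horizontal axis, negative inside the gene, positive outside) at the 19 genes reached (vertical axis). Each marker is the summit of 1 of the 6 peak lists; most markers of a gene overlie each other, and the Rpt3R summit of PitaZ276 FLAG stands apart at 424 bp.

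Many of these sites lay between close neighbours. In Pitawt FLAG 12 of the 18 summits also had the end of another gene within 500 bp. At 9 the nearest gene end was counted as that of the other gene. These include eIF4G2, a tie, as its own end and that of CG33111 were both 110 bp away. Over all genes, 977 Pitawt FLAG peaks reached 1505 genes, so summits near the ends of several genes were also found elsewhere. The matching shares over all such peaks were not computed, so whether these counts set this gene set apart was not tested. The gene table has no strand, so whether a summit lay at a start or at a 3' end is not given here. The 6 with no other gene end in the window were eIF4A, eIF4E1, eIF3c, Rpt6, Rpn11 and Prosbeta2. No peak was shared by any pair of the 99 genes, so each call was a separate site.

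The counts move with the window. In Pitawt FLAG 11 genes were reached within 200 bp, 18 within 500 bp and 24 within 1000 bp, against 4.41%, 8.51% and 12.1% of all genes. The genes just inside 500 bp were Prosalpha4T2 at 386 bp (fold 4.08) and Prosbeta2 at 344 bp (8.66), and those just outside were Prosbeta6 at 507 bp (9.28), eIF6 at 579 bp (4.65) and eIF3b at 642 bp (3.52).

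Other genes of these pathways were counted in the same way, where 5.18% of protein-coding genes were reached in PitaΔZ FLAG, 7.75% in PitaZ276 FLAG and 9.92% in Pitawt FLAG. Of 14 ubiquitin and proteasome regulators, 3 were reached in PitaΔZ FLAG, 3 in PitaZ276 FLAG and 4 in Pitawt FLAG (28.6%, 8.39 to 58.1). TER94, which encodes the p97 segregase that hands substrates to the proteasome, was called in all 6 lists, with FLAG folds of 117 in PitaΔZ, 34.0 in PitaZ276 and 79.5 in Pitawt. Pomp, the gene of a proteasome assembly chaperone, had FLAG folds of 55.6, 22.8 and 27.2 in PitaΔZ, PitaZ276 and Pitawt, and Uba1, the gene of the ubiquitin-activating enzyme, had 49.9, 19.1 and 30.3. Npl4 had 4.41 in Pitawt FLAG alone.

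Of 17 translation regulators, 1 was reached in PitaΔZ FLAG, 2 in PitaZ276 FLAG and 2 in Pitawt FLAG (11.8%, 1.46 to 36.4), near the protein-coding shares. Paip2, which encodes a repressor that binds the poly(A)-binding protein, was called in all 6 lists, with FLAG folds of 56.8 in PitaΔZ, 19.9 in PitaZ276 and 23.1 in Pitawt. The gene of the poly(A)-binding protein, pAbp, had 6.32 in Pitawt FLAG alone, and the release factor gene eRF3 was called at folds under 4 in PitaΔZ Pita and PitaZ276 FLAG. Among 33 aminoacyl-tRNA synthetase genes only HisRS was reached (3.03%, 0.0767 to 15.8), in all 6 lists, with FLAG folds of 36.7 in PitaΔZ, 25.4 in PitaZ276 and 55.0 in Pitawt.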

How the data were processed

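ChIP-seq libraries, 13 in all, were made from chromatin fixed in 1% formaldehyde for 15 min, with fragments of 200 to 600 bp selected, per the labels' protocols. The submitters' processing notes name deepTools, MACS2, bedtools, Picard, Bowtie2, cutadapt and the build dm6, with no version or setting. The deposited lists have 20 columns in the layout of an irreproducible discovery rate (IDR) output that joins a pair of peak lists, and have no header. From that layout, column 7 was read as the authors' fold, a ratio, and columns 8, 9, 12, 15 and 19 as deposited −log10 values of p, q and IDR. It is not known which library each joined column comes from. The lowest deposited −log10 IDR differed, at 2.01 in PitaΔZ FLAG, 2.02 in PitaΔZ Pita, 1.31 in PitaZ276 FLAG, 1.30 in PitaZ276 Pita, 2.00 in Pitawt FLAG and 1.30 in Pitawt Pita. Depth per library is unknown.

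Summits were taken as column 2 plus column 10, written 1-based, and gene positions from RefSeq's Release 6 table, which dm6 corresponds to. Each gene was given the summit nearest to either end within 500 bp. Peaks were paired when they overlapped by at least 1 bp and were mutually nearest by summit. Intervals are exact Clopper-Pearson at 95% and cover counting error over genes that are not independent. No test was made. The gene finding step was tested on simulated summits at known distances. The members, gene lists and comparisons were chosen with earlier results of these data known. Every gene reached in any list is named; sites outside the window and genes of other lists were named after their values were seen. Of the symbols listed for the regulators, 7 were not in the gene table and were left out. Promoter sequence and gene starts were not used here, as the reference held neither sequence nor strand. Python 3.11.15, numpy 2.4.6, pandas 2.3.3, scipy 1.17.1 and matplotlib 3.10.9 were used.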

Additional observations from a re-analysis of the deposited data

How the results depend on the processing

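Each count of genes reached and each share held between lists was recomputed with other windows, thresholds, list lengths and parts of the gene set, and, chosen after seeing the data, with the summits of the second joined list and with the same peak required. Of 162 such values, 151 stayed inside the interval of the reported value and, for counts over all 99 genes, within 1.5 times it. The 14 values without members sharing a summit could not move, as no members shared one. The intervals are wide, so a value inside them can still differ much from the reported one. With a window of 200 bp the share of the 99 genes was 5.05% in PitaΔZ Pita, 7.07% in PitaZ276 FLAG, 11.1% in Pitawt FLAG and 8.08% in Pitawt Pita. Over all genes these shares were 2.94%, 3.42%, 4.41% and 3.33%. With lists of equal length, 492 peaks each, the share of the 99 genes was 8.08% in PitaZ276 FLAG, 9.09% in Pitawt FLAG and 8.08% in Pitawt Pita. Over all genes these shares were 3.42%, 3.19% and 2.88%. PitaΔZ FLAG then held 77.8% of the Pitawt FLAG genes and PitaZ276 Pita 75.0% of the PitaZ276 FLAG genes, against 79.1% and 76.9% of all genes. With whole peaks in place of summits PitaZ276 FLAG reached 20.2%, against 9.90% of all genes. At a −log10 IDR of at least 2 PitaZ276 Pita reached 3.03%, against 1.34% of all genes. The share of the 99 genes was above that of all genes in 54 of 54 combinations of list and setting. These combinations filter the same lists again, so they are not separate evidence. The share of protein-coding genes, which was higher than that of all genes in each list as deposited, was not computed for the other settings. The planned use of gene starts alone was not run, as the table has no strand. No paired analysis was possible because each list joins its libraries, and for the same reason no library could be left out. The length of the PitaZ276 Pita list limits every share that uses it.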

Other observations

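Strong sites near some of these genes fell outside the window. The highest Pitawt folds among them were at a site 1004 bp from eEF1beta, the gene of an elongation factor subunit, inside Psi, a splicing factor gene, on 2R at 16867218. Its FLAG folds were 7.28 in PitaΔZ (rank 549 of 685), 12.7 in PitaZ276 (rank 285 of 1243) and 52.5 in Pitawt (rank 28 of 1792). With the Pita antibody the folds were 2.70 in PitaΔZ, 5.18 in PitaZ276 and 71.7 in Pitawt.

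A site inside eIF4EHP, which encodes a cap-binding repressor of translation, was called in all 6 lists, 76 bp from the end of Syx1A in Pitawt FLAG, with FLAG folds of 55.8 in PitaΔZ, 19.02 in PitaZ276 and 20.3 in Pitawt. A site inside AGO1, 1297 bp from Rpn13, was also called in all 6, with FLAG folds of 10.1, 15.9 and 20.2 in the same order. Inside eIF3a, 1111 bp from its end, Pitawt FLAG had a further summit with a fold of 13.1, and PitaZ276 FLAG had one peak of fold 8.99 that ran over the place of both Pitawt summits. In all, 14 genes of the set had a summit inside them or within 2000 bp, and none within 500 bp of an end. Among them, eIF2alpha had only the summits already counted at eIF4H1. The matching share over all genes was not computed, so the 14 are not a result about this set. The sites named here were chosen after their values were seen.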
